A study of Mus musculus with 16 samples.

Results

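The regions described here are 2667 bins of 100 kb on mouse chromosomes 1 to 19 that were between 30 and 55% methylated in both libraries of the starting fibroblasts. They were drawn from 15077 measured bins, of which they made up 17.7%, or 266.7 of 1507.7 Mb. Methylation was read by reduced representation bisulfite sequencing (RRBS), in which MspI digestion selects CpG-dense fragments and bisulfite treatment converts unmethylated cytosines. Sites counted when at least 10 reads covered them in all 16 libraries and when their 1-kb tile held fewer than 10 listed CpGs, which keeps CpG-rich stretches out. A bin was measured when at least 10 such sites lay in it, and its level is the mean percent methylation of those sites. These 2667 bins are called intermediate bins below. They are set beside 3405 high bins, which were at 70% or more in both libraries of the starting cells.

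The starting cells, labelled D0, were mouse embryonic fibroblasts (MEFs) at passages 1 to 3, from E13.5 embryos of a cross of 129 with OG2 mice, which carry an Oct4 reporter transgene. They were grown in DMEM with serum, then moved to a chemical reprogramming medium and collected every 2 days as D2, D4, D6, D8, D10 and D12. The labels give no genotype difference, and all groups carry the 129 by OG2 background. Induced pluripotent stem cells (iPSCs) were grown over feeder cells with LIF and 2 kinase inhibitors, CHIR99021 against GSK3 and PD0325901 against MEK. The labels do not say whether feeder DNA was removed or which culture gave the iPSCs. All 8 groups had 2 libraries, and nothing in the labels says that they came from separate cultures. P-values therefore reflect the spread between these libraries alone, and that spread may be technical. The libraries listed 1480222 to 2516218 sites, with a median coverage of 18 to 27 reads.

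In cultured fibroblasts and many tumours, long stretches of the genome known as partially methylated domains carry lower and more variable methylation than the rest. They tend to be poor in genes, late in replication and attached to the nuclear lamina, and maintenance of methylation there lags behind in dividing cells. Pluripotent cells usually lack them, and their genome is methylated nearly evenly outside CpG islands. Because such domains are long, neighbouring bins and unrelated sites within a bin would share the lower level.

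The intermediate bins were proposed as such domains, and the data went against that name. Bins next to an intermediate bin had a mean level of 60.5% at D0 (4103 neighbours at 100 kb), where all measured bins had 62.2% and the neighbours of high bins 62.9%. Of these neighbours 22.8% were themselves intermediate, against 17.7% of all measured bins, and at 1000 kb the share was 18.8%. Most intermediate bins stood alone. Of the 2667, 1687 (63.3%) had no intermediate bin as the next measured bin on either side, 624 lay in pairs, and 48 lay in 9 runs of 5 or more. At 17.7% of measured bins, most would stand alone even if placed without any order. These run counts have no background beside them and are a description. A level shared over several neighbouring bins was thus seen for few of them.

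Sites that took no part in the choice showed how far the lower level reached within a bin. In tiles that held a kept site, other CpG-poor sites, covered in the D0, D12 and iPSC libraries but not in all 16, stood at 53.9% ± 0.097 (SD, n = 2) at D0 in 1328 intermediate bins and at 71.0% ± 0.18 in 1415 high bins. In tiles with no kept site, the same kind of site stood at 62.6% ± 0.18 in 1073 intermediate bins, 66.9% ± 0.14 in 1060 high bins and 65.1% ± 0.13 in all bins. The distance between the classes (intermediate minus high) was thus -28.9 points at the sites that chose the bins, -17.1 points at other sites of the same tiles and -4.34 points at CpG-poor sites in other tiles of the same 100 kb. CpG-rich tiles, also left out of the choice, kept a distance of -15.0 points at D0 (37.7 against 52.8%). Over all autosomal CpG-poor tiles with at least 3 sites, the level of 2 tiles was correlated across pairs with Pearson's r = 0.516 at D0 when they lay 1 to 2 kb apart. The r was 0.134 at 2 to 5 kb and 0.0233 at 50 to 100 kb, and it is a description across 5448, 7678 and 118741 tile pairs, which share libraries and are not independent. In iPSCs the values at the same distances were 0.581, 0.216 and 0.0485. Whether partially methylated domains exist in these fibroblasts at sites that RRBS does not cover was not tested.

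**Figure D1:**
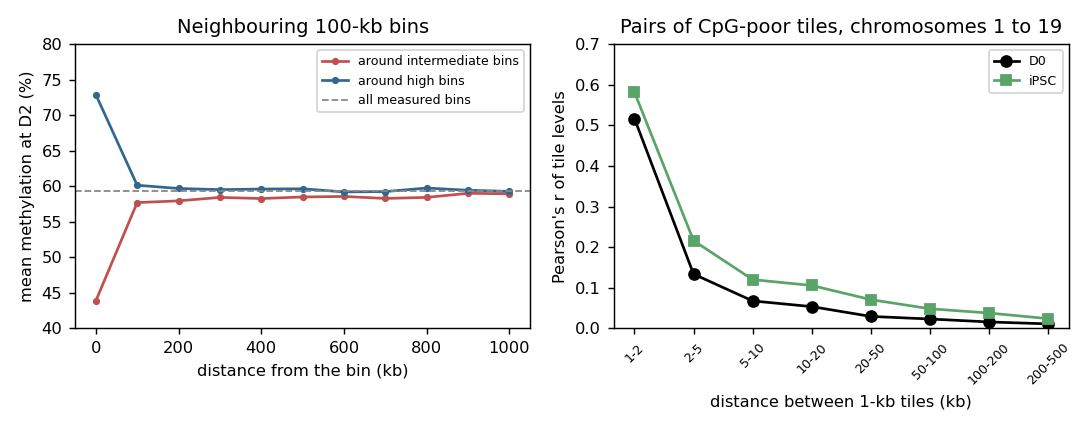
Left, mean methylation at D2 (percent) of the bins of each class at distance 0 and of measured bins at 100 to 1000 kb from them, with the mean of all measured bins as a dashed line; right, Pearson's r between the levels of pairs of 1-kb tiles by distance in kb, at D0 and in iPSCs. The neighbours of intermediate bins lay at 57.7% at 100 kb, close to the 59.3% of all bins, and r fell from 0.516 to 0.134 between the first 2 distance classes at D0.

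The intermediate bins held low, middle and high sites in similar shares. Of their 76360 kept sites, 36.3% ± 0.23 (SD, n = 2) were under 20% methylated at D0, 34.95% ± 0.012 lay between 20 and 80%, and 28.7% ± 0.22 were at 80% or more. In high bins the shares were 14.4% ± 0.26, 17.6% ± 0.45 and 68.0% ± 0.19 of 89316 sites, and middle sites made up 28.3% in all measured bins. At D2, in libraries that took no part in the choice, the intermediate bins still held 39.4% ± 0.38 low, 34.5% ± 0.45 middle and 26.1% ± 0.071 high sites. Tiles within 1 bin lay far apart at D0. Among 1924 intermediate bins with at least 3 such tiles, the median range between the lowest and the highest tile was 60.7 points. It was 35.9 points in all 10209 measured bins with at least 3 such tiles and 27.3 points in 2029 high bins. In 22.6% of these intermediate bins 1 tile was under 20% while another was at 80% or more. The share was 10.7% among the 10209 bins and 0.838% among the high bins. A high D0 mean leaves little room for a tile under 20%, so both contrasts with high bins follow largely from the choice. These D0 values of tiles come from the cells that chose the bins and are given as a description.

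The intermediate bin with the most kept sites had mainly middle tiles. It lay on chromosome 14 (55300001 to 55400000, GRCm39), held 135 kept sites in 23 tiles and rested on 5313 to 12725 reads per library. Its tile at 55329001 to 55330000 stood at 0.858% at D0 with 7 sites, and its tile at 55388001 to 55389000 at 70.6%, also with 7 sites. Between them, at 55345001 to 55346000, a tile of 5 sites was at 46.6%. Of the 23 tiles, 3 were under 20%, 19 between 20 and 80% and 1, with a single site, at 80% or more at D0. The other 4 of the 5 bins with most sites lay on chromosome 19 (47800001 to 47900000), chromosome 5 (134700001 to 134800000 and 75200001 to 75300000) and chromosome 2 (71300001 to 71400000). Each of the 4 held between 1 and 4 tiles under 20% and between 1 and 4 at 80% or more, and middle tiles were the most numerous in all 4, with 9 of 15, 13 of 17, 8 of 13 and 11 of 17. Which genes lie in these bins was not looked up, because the gene table at hand belongs to another build, and no sequence is printed for the same reason.

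**Figure D2:**
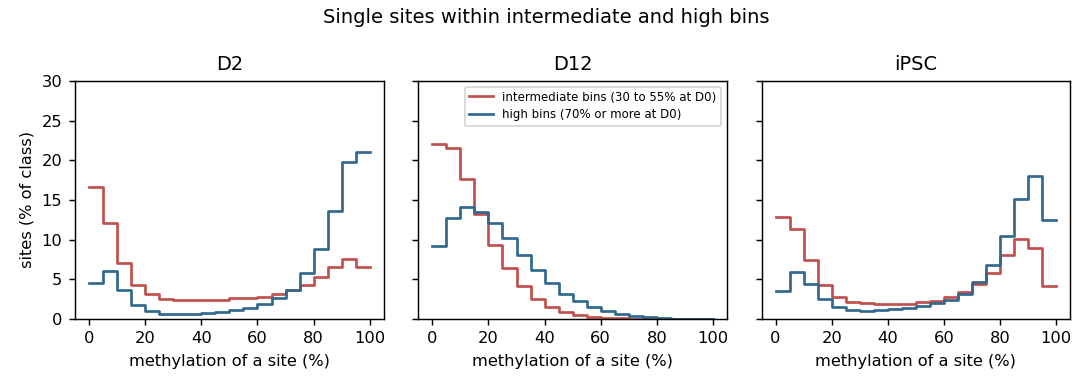
Share of the kept sites of each class (percent of sites, 5-point steps) by their methylation (percent, mean of the 2 libraries) at D2, D12 and in iPSCs. In intermediate bins the sites form a peak near 0 and a lower one near full methylation at D2 and in iPSCs, and at D12 both classes have a single peak, which lies in the lowest 5-point step for intermediate bins and between 10 and 15% for high bins.

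Intermediate and high bins were alike in kept sites, tiles and reads per bin, and differed in listed CpGs. A CpG is listed when a library covered it, so these counts depend on coverage and are not CpG density in the genome. The same holds for the terms CpG-poor and CpG-rich. The median intermediate bin held 24 kept sites in 5 tiles and the median high bin 22 sites in 4 tiles, and the median number of reads per bin and library was 1073 and 1001. More CpGs were listed in intermediate bins, with a median of 91 against 60 in high bins and 73 in all measured bins. Of the kept sites of intermediate bins, 25.3% lay in tiles of 1 to 3 listed CpGs and 33.5% in tiles of 7 to 9. In high bins these shares were 17.6% and 41.9%. CpG-rich tiles were absent from 21.7% of intermediate bins and 32.0% of high bins. The CpG-rich tiles themselves, left out of the choice, were also lower in intermediate bins, at 35.5% ± 0.021 (SD, n = 2) against 50.4% ± 0.016 in high bins at D2. By D12 these tiles stood at 16.6% ± 0.11 and 21.9% ± 0.0070, with iPSC levels of 35.02% ± 0.14 and 46.4% ± 0.13. Intermediate bins occurred on all 19 chromosomes and made up between 13.6 and 21.1% of the measured bins of each.

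Methylation of the intermediate bins fell from D4 to D12 and was back near its starting level in iPSCs. The mean over the 2667 bins was 46.6 and 46.7% in the D0 libraries, which chose the bins, 43.9 and 43.9% at D2, and 45.3 and 45.4% at D4. The D6 libraries had 37.4 and 38.2%, those of D8 28.5 and 27.0%, those of D10 19.1 and 19.4%, and those of D12 14.3 and 14.1%. In iPSCs it was 49.6 and 49.6%. From D6 to D12 each group lay below all earlier ones without overlap of libraries, and the iPSC libraries lay above every other library. The order of iPSC and D0 turned when no CpG-rich tiles were dropped: the iPSC means were then 43.5 and 43.3%, below 43.8 and 43.9% at D0 and above 41.2% in both D2 libraries. High bins moved from 72.9% ± 0.090 (SD, n = 2) at D2 through 63.6% ± 0.42 at D6 and 37.6% ± 0.35 at D10 to 23.6% ± 0.095 at D12, and stood at 69.5% ± 0.033 in iPSCs.

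**Figure D3:**
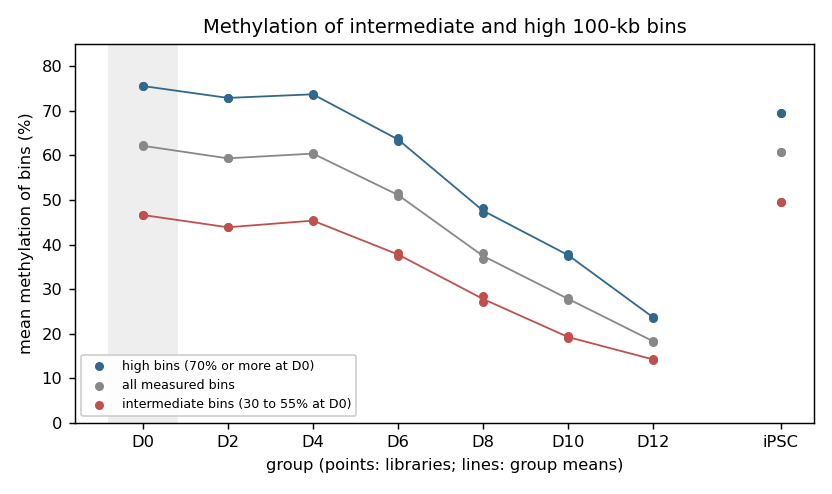
Mean methylation (percent) of intermediate, high and all measured bins in each library (points) and group (lines) from D0 to D12 and in iPSCs; D0, shaded, chose the classes. All 3 sets fall to D12, intermediate bins from 43.9% at D2 to 14.2%, and in iPSCs intermediate bins lie at 49.6% and high bins at 69.5%.

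The loss was called in nearly every intermediate bin and in nearly every other bin. Against D2, which played no part in the choice, 2644 of 2667 intermediate bins (99.1%) were lower at D12 and 0 were higher (edgeR, Benjamini-Hochberg adjusted p under 0.05 and at least 10 points). Over all measured bins 98.8% were called lower, so the share of intermediate bins is that of the background. The background of bins called higher is 0.0265%. At an unadjusted p under 0.05 edgeR found 1 intermediate bin higher, and a quasi-binomial fit called 0. The median difference, taken on the pooled reads of each bin, was -32.9 points in intermediate bins and -51.9 points in high bins. The minimum of 10 points and the medians of the steps below also use pooled reads, whereas bin levels are means over sites. By sites the class means went from 43.9 to 14.2% in intermediate bins and from 72.9 to 23.6% in high bins. From D12 to iPSC, 2627 intermediate bins (98.5%) rose, against 98.6% of all bins. None was called lower by edgeR or by the quasi-binomial fit, 0 were lower at an unadjusted p under 0.05 in edgeR, and the background of lower calls is 0.0464%. Of the comparisons with D0, which are descriptions, 2658 intermediate bins were lower at D12, where the background is 99.2%, and 0 were higher, with a background of 0.00663%, with 0 at an unadjusted p under 0.05 and 0 in the quasi-binomial fit. With D4 as the start, 2645 were lower (99.2%), against 99% of all bins.

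The steps of the loss were smaller in points in intermediate bins than in high bins. Between D2 and D4 no intermediate bin was called in either direction in edgeR (background 0% in both), although 152 were higher and 67 lower at an unadjusted p under 0.05, against 481 and 238 of all 15077 bins, and the quasi-binomial fit called 0 in both directions. From D4 to D6, 957 intermediate bins (35.9%) fell, against 47.8% of all bins and 51.9% of high bins. From D6 to D8 the share was 57.9%, against 80.4% of all bins, and from D8 to D10 it was 29.5%, against 44.8%. The last step, D10 to D12, was the one that set the classes apart most in these counts, with 400 intermediate bins (15.0%) lower against 49.5% of all bins and 77.3% of high bins. The medians of this step were -5.59 points in intermediate bins and -14.3 points in high bins. A minimum of 10 points is a larger part of a low level than of a high one. With no minimum, 62.8% of intermediate bins were lower in the last step, against 81.7% of all bins and 91.4% of high bins. For D10 against D8 the shares with no minimum were 70.2% of intermediate, 72.2% of all and 68.0% of high bins, so the order of intermediate and high bins turned. Few bins rose in these steps: 0, 2, 1 and 2 intermediate bins for D6, D8, D10 and D12 against the group before, with backgrounds of 0.0133, 0.0597, 0.0398 and 0.0531%. For D6 against D4, 1 intermediate bin was higher at an unadjusted p under 0.05 in edgeR, and the quasi-binomial fit called 0. Differences in these shares between the classes were not tested.

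The distance between the classes shrank as both fell. The level of intermediate bins minus that of high bins was -29.0 points at D2, -28.3 at D4 and -25.8 at D6 (means of 2 libraries). It was -19.8 for D8, -18.4 for D10, -9.43 for D12 and -19.9 for iPSCs. The distance had a mean of -13.9 points ± 5.2 (SD, n = 4) in the D10 and D12 libraries and -28.7 points ± 0.40 (SD, n = 4) in the D2 and D4 libraries. The difference of 14.8 points had a two-sided exact permutation p = 0.0286, the smallest that 4 libraries against 4 allow. A distance in points has to shrink when both levels fall this far, so this p says nothing of unequal loss, and the late SD is mainly the gap between D10 and D12. Without any 1 of these 8 libraries the difference was 13.3 to 16.3 points, with exact p = 0.0571, the smallest that 3 against 4 allow. As a ratio, intermediate bins stood at 0.602 of the high bins at D2, 0.615 at D4, 0.594 at D6 and 0.584 at D8. The later ratios were 0.511 (D10), 0.601 (D12) and 0.714 (iPSC). Its mean was 0.556 ± 0.052 (SD, n = 4) over D10 and D12 and 0.609 ± 0.0079 (SD, n = 4) over D2 and D4, a difference of -0.0525 that missed the threshold (two-sided exact permutation p = 0.0857). The D10 and D12 libraries lay apart in this ratio. Those of D10 were at 0.510 and 0.513, below all D2 and D4 libraries (0.601 to 0.616), and those of D12 at 0.603 and 0.599. The test takes 2 libraries of each of 2 days as 4 repeats, so its p describes neither D10 nor D12 by itself. For 2 libraries against 2, as for iPSC against D2, the smallest p is 0.333.

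At D10 the intermediate bins had kept a smaller share of their level than the high bins, and at D12 the shares were alike. They were at 43.9% of their D2 mean at D10, where high bins were at 51.6%, and at 32.4% at D12, where high bins were also at 32.4%. The D10 share was lower in intermediate bins than in high bins on 19 of 19 chromosomes, and the D12 share on 7 of 19. All chromosomes were read in the same 2 libraries of each group, so these counts are a description and not repeats. By chromosome the D10 share ranged from 41.4 to 46.0% in intermediate bins and from 47.0 to 54.0% in high bins. The SDs between the 2 D10 libraries were 0.25 points in intermediate and 0.35 points in high bins.

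Sites grouped by their D2 level showed that equal shares at D12 covered unequal sites. Sites at 80% or more in both D2 libraries made up 21.2% of the sites of intermediate bins (16185) and 54.8% of those of high bins (48964). In intermediate bins they went from 92.0% ± 0.14 (SD, n = 2) at D2 to 76.9% ± 0.32 at D6 and 52.8% ± 0.86 at D8, then to 38.7% ± 0.48 by D10 and 22.5% ± 0.12 by D12. In high bins they went from 93.0% ± 0.12 to 80.1% ± 0.30, 59.4% ± 0.59, 48.1% ± 0.38 and 28.6% ± 0.027. At D12 they were at 24.4% of their D2 level in intermediate bins and 30.7% in high bins. The order at D12 was the same in the 3 classes of listed CpGs per tile. At 7 to 9 listed CpGs per tile the D12 level of such sites was 23.8% ± 0.078 in intermediate and 31.3% ± 0.070 in high bins, and at 1 to 3 CpGs it was 21.8% ± 0.079 and 24.6% ± 0.25. Sites between 20 and 80% at D2 made up 25.1% of sites in intermediate bins and 13.3% in high bins. At D12 these middle sites were at 27.9% of their D2 level in intermediate bins and 29.0% in high bins, so the classes lay closer there. Sites under 20% at D2 made up 34.97% of sites in intermediate bins and 13.8% in high bins. In intermediate bins they went from 5.81% ± 0.068 at D2 to 9.73% ± 0.061 at D4. They then stood at 6.34% ± 0.19 at D10 and 8.44% ± 0.057 at D12. In high bins the values were 7.13% ± 0.050, 10.7% ± 0.11, 7.46% ± 0.18 and 9.20% ± 0.25. Their rise over D2 was thus already present at D4, before the class means fell, and they were lower at D12 than at D4. These classes rest on D2 levels, so part of any move away from D2 can come from the choice.

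**Figure D4:**
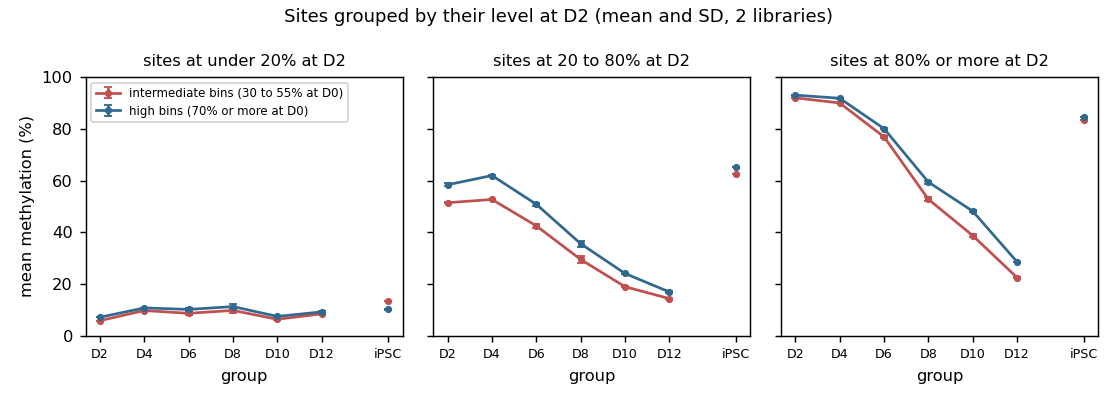
Mean methylation (percent, points with SD over 2 libraries) of sites under 20%, between 20 and 80% and at 80% or more in both D2 libraries, from D2 to D12 and in iPSCs, in intermediate and high bins. Sites at 80% or more fall to 22.5% in intermediate bins and 28.6% in high bins at D12, and return to 83.4 and 84.6% in iPSCs.

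In iPSCs the intermediate bins had a lower mean than the high bins. Their mean was 49.6% ± 0.037 (SD, n = 2), and the SD over bins was 11.2 points in both libraries, against 6.87 and 6.80 points at D2. The SD of high bins also widened, from 4.97 and 4.93 to 8.89 and 8.75 points, while that of all bins did not, at 12.3 and 12.4 against 12.1 and 12.1 points. A narrow spread near D0 follows from choosing bins by their D0 level. Of the 2667, 1576 (59.1%) were again between 30 and 55% in both iPSC libraries, 663 lay above 55 and under 70%, 52 were at 70% or more and 84 were under 30%. Over all measured bins the shares in these 4 ranges were 19.3, 46.5, 15.9 and 2.12%, and among intermediate bins 59.1, 24.9, 1.95 and 3.15%. Against D2, 830 intermediate bins (31.1%) rose in iPSCs and 166 (6.22%) fell (edgeR, Benjamini-Hochberg adjusted). Over all measured bins 13.4% rose and 8.8% fell, and among high bins 1.85% rose and 15.6% fell. On each of the 19 chromosomes the mean of intermediate bins was higher in iPSCs than at D2, by 3.602 to 9.36 points, while that of high bins was lower, by -4.46 to -2.10 points. The chromosomes share libraries, so this is a description. In the comparison with D0, which chose the bins, 612 intermediate bins were higher (background 7.31%) and 252 lower (background 12%), from which nothing is read.

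The opposite choice gave the opposite picture. When the same limits were applied to the iPSC libraries, 2904 bins were at 30 to 55% in both of them, and of these 8.30% were higher in iPSCs than at D2 and 23.9% were lower. Their means were 46.1 and 46.1% in the iPSC libraries, 49.98 and 49.99% at D2 and 52.5 and 52.6% at D0. Bins chosen as intermediate in either cell type thus had a higher mean in the other. At the kept sites, a rise of the D0-chosen bins in iPSCs cannot be told apart from the effect of choosing bins at a low level. Other CpG-poor sites of these bins rose little or not at all. In tiles with a kept site they stood at 53.9% ± 0.097 (SD, n = 2) at D0 and 54.6% ± 0.18 in iPSCs. In tiles with no kept site they went from 62.6% ± 0.18 to 61.04% ± 0.11. CpG-rich tiles stood at 37.7% at D0, 35.5% at D2 and 35.02% in iPSCs. These differences were not tested. The difference between intermediate and high bins was -20.2 points at D0 when chosen on iPSCs and -19.9 points in iPSCs when chosen on D0.

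**Figure D5:**
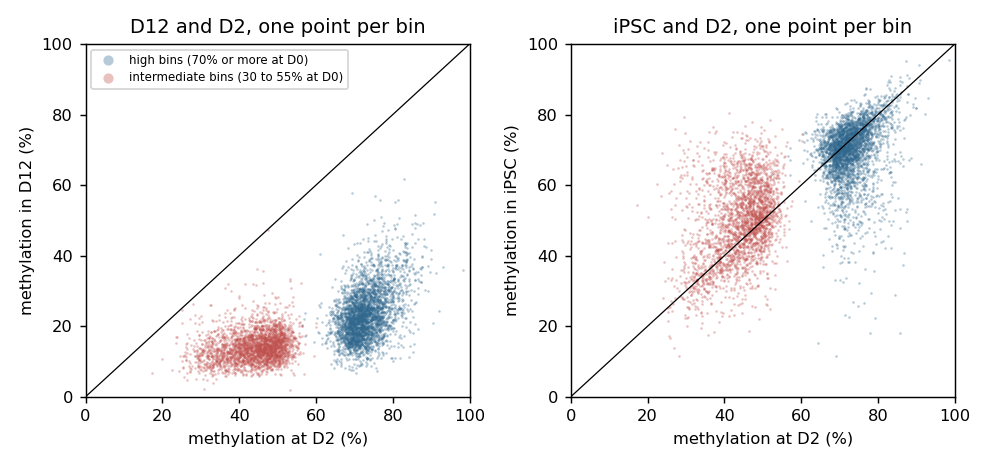
Methylation at D12 (left) and in iPSCs (right) against D2, in percent, with 1 point per bin for the 2667 intermediate and 3405 high bins and a line of equal levels. At D12 nearly all bins lie below the line, and in iPSCs intermediate bins scatter around and above it with an SD over bins of 11.2 points.

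Among the intermediate bins, those that started lower lost fewer points to D12 and regained fewer points from D12 to iPSC. Bins with a mean D0 level of 30 to 35% (156 bins) stood at 31.1% ± 0.25 (SD, n = 2) at D2, 12.03% ± 0.25 at D12 and 37.0% ± 0.38 in iPSCs. Bins at 50 to 55% (992 bins) stood at 49.4% ± 0.058, 14.9% ± 0.18 and 53.7% ± 0.043. The D12 level was thus 38.7% of the D2 level in the lowest step and 30.2% in the highest. Between D0 and iPSC the mean went from 33.2 to 37.0% in the lowest step and from 52.2 to 53.7% in the highest. These steps rest on D0 levels, so part of the differences between them can come from the choice. Just outside the limits, 69 bins at 25 to 30% in both D0 libraries were at 10.7% ± 0.21 at D12 and 35.3% ± 0.17 in iPSCs. The 1309 bins at 55 to 60% were at 15.9% ± 0.28 and 58.0% ± 0.092, so no break was seen at either limit. Of the bins nearest the limits, that just inside the upper one, on chromosome 19 (44800001 to 44900000), was at 50.7 and 54.997% in the D0 libraries, and that just outside it at 55.004 and 54.8%. At the lower limit the bin just inside, on chromosome 9 (49800001 to 49900000), was at 30.1 and 35.04%, and that just outside, on chromosome 13 (101900001 to 102000000), at 29.98 and 31.4%. Across the 2667 bins the D2 level was correlated with the D6 level at Pearson's r = 0.810, with the D12 level at 0.220 and with the iPSC level at 0.352, as a description over bins that share libraries. Over all 15077 bins, which were not confined to a narrow D0 range, these values were 0.945, 0.568 and 0.708. Agreement between replicates also varied, with r across intermediate bins of 0.901 between the D0 libraries, 0.568 between those of D12 and 0.954 between those of iPSCs.

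The longest runs of intermediate bins were short, and they differed in their iPSC levels. The 3 longest held 6 bins each and spanned 0.6 Mb. They lay on chromosome 19 (44600001 to 45200000), on chromosome 4 (125600001 to 126200000) and on chromosome 1 (171900001 to 172500000). The run on chromosome 19 rested on 303 kept sites. Its libraries had 44.9 and 45.6% (D0), 42.02 and 42.4% (D2), 43.8 and 45.7% (D4), 37.8 and 36.1% (D6), 25.3 and 24.6% (D8), 19.01 and 18.02% (D10), 13.1 and 13.4% (D12), and 47.6 and 49.6% (iPSC). Its fall began after D4, and its iPSC libraries lay above all others. Its 6 bins ranged from 40.4 to 52.9% at D0 and from 41.9 to 64.9% in iPSCs. The runs on chromosomes 4 and 1 were at 49.6 and 46.2% in iPSCs, from 47.2 and 42.6% at D2. The next runs, with 5 bins each, on chromosome 7 (45000001 to 45500000) and chromosome 11 (116900001 to 117400000), were lower in iPSCs, at 40.5 and 41.9%, than at D2, at 44.4 and 44.3%.

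The intermediate bins that rose most from D2 to iPSC had mostly dropped between D0 and D2. The ranking, on pooled reads, was by the rise over D2 and so favours bins low at D2. The choice put all of them at 30% or more at D0, so such a drop follows largely from these rules. A bin on chromosome 16 (95200001 to 95300000, 30 sites in 4 tiles) was at 48.4 and 49.3% at D0, 28.9 and 29.7% at D2, 35.6 and 33.3% at D4. Its later libraries had 25.3 and 22.8% (D6), 19.2 and 19.2% (D8), 16.7 and 16.8% (D10), and 9.43 and 8.83% (D12). In iPSCs it was at 68.3 and 71.3%, above all other libraries (edgeR adjusted p = 6.28e-10 against D2). A bin on chromosome 13 (44400001 to 44500000, 42 sites) went from 47.6 and 49.9% at D0 to 28.0 and 28.1% at D2 and was at 64.1 and 65.7% in iPSCs (adjusted p = 3.46e-10). Bins on chromosome 16 (26100001 to 26200000) and chromosome 14 (25700001 to 25800000) were also lower at D2, at 29.5% and 25.5%, than at D0, at 46.7% and 42.5%, and had iPSC levels of 79.2% and 57.7%. The first of them rests on 10 sites in 1 tile and was lower still at D4, at 20.3%. The fifth, on chromosome 3 (139500001 to 139600000), went from 38.7% at D0 to 27.2% ± 6.9 (SD, n = 2) at D2 with replicates far apart, was at 42.6% ± 3.0 at D4, above D0, and at 75.8% ± 3.0 in iPSCs.

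Early loss of this kind touched a small part of the intermediate bins. At D2, 68 of them (2.55%) lay at least 10 points below D0 by the mean over sites, and 0 lay 10 points above. The share was 0.852% among high bins and 1.57% among all bins. In each of the 68 both D2 libraries were below both D0 libraries. The same held for 29 of 29 high bins and 236 of 237 of all measured bins that lay as far below D0, so it is not particular to intermediate bins. The 68 bins had means of 46.9% ± 0.63 (SD, n = 2) at D0, 33.2% ± 0.31 at D2, 36.5% ± 0.011 at D4, 14.0% ± 0.84 at D12 and 58.1% ± 0.91 in iPSCs. In edgeR 24 intermediate bins were called lower at D2 than at D0 and 69 at D4, against backgrounds of 0.657 and 1.56% of all bins. Higher calls numbered 1 and 8, with backgrounds of 0.00663 and 0.073%. These values use the D0 libraries that chose the bins and are a description, and the 68 bins were chosen for their drop. Of the 68, 50 (73.5%) were also among the 830 called higher in iPSCs than at D2. That share was 31.1% among all intermediate bins and 13.4% among all measured bins. Bins chosen for a drop at D2 start low at D2, which favours such a rise, so nothing is read from this count. With D4 in place of D2 as the starting point, 786 intermediate bins rose in iPSCs (29.5%, background 12.6%) and 221 fell (background 10.2%).

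Some intermediate bins did not regain their level in iPSCs. A bin on chromosome 2 (146100001 to 146200000, 15 sites) was at 50.5 and 47.3% at D2, 14.0 and 8.12% at D12 and 19.3 and 24.7% in iPSCs (edgeR adjusted p = 4.7e-08 for iPSC against D2). A bin on chromosome 5 (92200001 to 92300000, 27 sites) was at 50.9 and 51.3% at D2, 20.4 and 18.4% at D12 and 28.4 and 27.0% in iPSCs (adjusted p = 2.91e-07). The iPSC libraries of both bins lay below those of D2, D4 and D6. Next in size came bins of chromosome 19 (4800001 to 4900000), of chromosome 15 (98800001 to 98900000) and of chromosome 9 (64100001 to 64200000), which had iPSC levels of 30.9, 31.6 and 24.8%. The lowest iPSC levels, of 11.5 to 16.6%, were found in bins on chromosome 12 (23300001 to 23400000 and 80300001 to 80400000) and chromosome 8 (84900001 to 85000000). The highest were 80.5% on chromosome 1 (163200001 to 163300000), 79.2% in the bin on chromosome 16 at 26100001, and 78.5% on chromosome 9 (117300001 to 117400000).

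The size of the loss to D12 also varied between intermediate bins. The largest falls from D2, measured on pooled reads, were -63.5 points on chromosome 19 (11900001 to 12000000), -57.8 points on chromosome 2 (121300001 to 121400000) and -56.7 points on chromosome 15 (54600001 to 54700000). Pooled reads give deeply covered sites more weight than the mean over sites does, and the ranking holds on pooled reads only. By sites the bin on chromosome 19 went from 43.6% at D2 to 8.96% at D12, and that on chromosome 2 from 49.3% to 19.2%. In the bin on chromosome 2 the D12 libraries stood at 8.33 and 30.1% by sites, so the replicates did not agree on its level. The bin on chromosome 15 was at 53.8 and 54.0% at D2, fell to 5.29 and 8.28% by D12, and had iPSC levels of 55.3 and 53.3%. The smallest called fall, -10.03 points, was that of a bin on chromosome 14 (30700001 to 30800000) at 34.1 and 31.9% at D2 and 22.8 and 20.8% at D12 (edgeR adjusted p = 0.00237). Bins on chromosome 2 (12100001 to 12200000) and chromosome 14 (25700001 to 25800000) followed at -10.04 and -10.1 points, both from D2 levels of 23.7 and 25.5% that already lay below D0.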

How the data were processed

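DNA methylation was measured by RRBS in 16 libraries of 8 groups. Per the submitters' processing notes, the authors used fastp 0.20.1, Bismark 0.23.0, Bowtie2 and methylKit on build GRCm39; no source used here gives their settings or the handling of filled-in MspI ends and duplicates. The deposited tables list, per CpG and strand, coverage as a count of reads and freqC and freqT as percent of reads, per the file headers, and the smallest coverage is 10. Coverage times percent gave whole methylated counts at each site (0 exceptions, within rounding of the printed percent). No molecular identifiers are named in the labels, so reads are not independent molecules.

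Kept sites (449747 of 3088148 listed on chromosomes 1 to 19) were averaged per 100-kb bin. Methylated and unmethylated reads summed per bin were tested with edgeR 4.0.16 (R 4.3.3) quasi-likelihood, all 16 libraries, common dispersion, 8 residual degrees of freedom, Benjamini-Hochberg over 15077 bins. Calls needed an adjusted p under 0.05 and 10 points. Differences for calls, their medians and the ranking of called changes were taken on pooled reads per bin and library. Scripts were tested on simulated data. The members, lists and tests were chosen with earlier results of these data known. Regions were named by rule: the 5 longest runs, the 5 bins with most sites, the largest called changes (iPSC against D2, and D12 against D2) and the extreme iPSC levels. Genes, promoters and sequences were not used here, since the tables at hand are on GRCm38.p6. Alternatives covered coverage, bin size, listed CpGs per tile, strands, choice of bins, model and each library.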

Additional observations from a re-analysis of the deposited data

How the results depend on the processing

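The balance of higher and lower calls in iPSCs turned in 2 alternatives. With no CpG-rich tiles dropped, 12.2% were higher and 13.2% lower in iPSC against D0 (22.9% and 9.45% with them dropped), while iPSC against D2 kept its balance, at 21.5% and 7.35%. The other moved the choice of bins to the iPSC libraries and, like D4 in place of D2, was chosen after seeing the data. There 8.30% of chosen bins were higher and 23.9% lower in iPSC against D2, 4.03% and 30.6% in iPSC against D0, and 26.9% lower in D12 against D10. With a minimum difference of 25 points the shares of intermediate bins called were 7.31% higher and 0.487% lower in iPSC against D2, and 3.94% and 0.675% in iPSC against D0. For the steps D6, D8, D10 and D12 against the group before, they were 0.112%, 0.29996%, 0.112% and 0.0375%. With no minimum they were 59.9%, 70.2% and 62.8% for D6 against D4, D10 against D8 and D12 against D10. With no CpG-rich tiles dropped, 19.5% were lower in D10 against D8. For D4 against D2, where 0 were called, single bins appeared: fitting the compared groups only gave 0.0750% higher and 0.112% lower, 50-kb bins 0.0325% in either direction, dropping tiles from 5 CpGs 0.0516% and 0.103%, merged strands 0.0901% and 0.0451%. The lower share was 0.0716% with 20 reads per site, 0.0602% with 20 sites per bin and 0.117% with 200-kb bins. The change in the ratio of intermediate to high bins passed the threshold with 20 reads (-0.0652), 200-kb bins (-0.0620) and iPSC-chosen bins (-0.0859), each with exact permutation p = 0.0286.

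Leaving out 1 library gave 98.4 to 99.1% for D12 against D2, 98.3 to 98.5% for iPSC against D12, 25.9 to 32.2% higher and 5.21 to 6.52% lower for iPSC against D2, and 28.7 to 36.6%, 53.1 to 58.9%, 27.2 to 35.1% and 14.9 to 17.96% for the 4 loss steps. It gave 0 to 0.0375% lower for D4 against D2, and 13.3 to 16.3 points for the distance between classes. A replicate block moved no share by over 1.5 times: 99.1% for D12 against D2 and 30.9% higher for iPSC against D2. Replicate differences of any 2 groups were correlated at -0.0185 to 0.0213 across bins, so the numbers were not taken as pairs. Depth sets limits at single bins: intermediate bins had a median of 716 reads in the shallowest library.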
